A study of Mus musculus with 2 samples.

Results

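The secretory pathway chaperone genes are 10 genes of the endoplasmic reticulum (ER), the compartment where secreted and membrane proteins are made. Of them 9 encode proteins that fold other proteins there or assist in it, and Xbp1 encodes a transcription factor that raises such genes. They are Sdf2l1, Creld2, Manf, Hspa5, Dnajb9, Xbp1, Pdia4, Hsp90b1, Calr and Hyou1, and all 10 were among the 15975 genes measured on both arrays. The set was proposed from these arrays, and its members were in part chosen by their lower values in TG+STZ, so the differences given here are a description without a test. Probes were assigned to a member through the transcript accession that the scanner tables print for each spot. This gave 11 probes, namely 2 for Dnajb9 and 1 for each of the other 9 genes. The probe of Creld2 was spotted 10 times on each array, and the other probes once.

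RNA was taken from dissected glomerular regions of the kidney of male mice on a C57BL/6J strain background. WT+STZ mice were wild type, and TG+STZ mice are labelled Sirt1-overexpressing transgenic. Mice of both groups were given streptozotocin (STZ), a toxin of the insulin-producing cells used to cause diabetes, at 8 weeks in citrate buffer of 100 mmol/l. Glucose values are not given in the labels. Tissue was collected when the mice were 32 weeks old. Each group had 1 array with 1-colour Cy3 labelling, so the differences lack a replicate check and could not be tested between genotypes. No array of mice without STZ was analysed here. The number of mice behind each array and the promoter of the transgene are not given in the sources used here. The title of the series places the action of Sirt1, a protein deacetylase, in the renal tubule and its effect in podocytes, the epithelial cells of the glomerular filter.

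Sirt1 itself had 2625 units for WT+STZ against 2977 for TG+STZ, a scaled log2 difference of 0.10 with a scanner error of 0.20. The sources used here do not say whether its probe covers the transgene, so this value does not check the genotype label.

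When unfolded protein builds up in the ER, the unfolded protein response raises the supply of chaperones. It starts from 3 sensors in the ER membrane, encoded by Atf6, Ern1 and Eif2ak3. ATF6 is cut and enters the nucleus as a transcription factor, IRE1 (Ern1) splices the mRNA of Xbp1 into a form that encodes an active factor, and PERK (Eif2ak3) slows translation and raises ATF4. Chaperone promoters often carry the ER stress element (ERSE), which ATF6 binds together with the factor NF-Y. In the kidney, the podocyte and the proximal tubule cell both carry heavy loads of membrane and secreted protein.

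The ERSE was searched as CCAAT, then 9 bases of any kind, then CCACG, on both strands of the RefSeq promoter table, which gives 250 bases before and 50 after each start site. The table holds 8 of the 10 members. Of these 8, the promoters of Hspa5, Hsp90b1, Creld2 and Calr hold the exact letters, against 37 of 27025 genes in the whole table (0.137%). By window, 39 of 32851 hold them (0.119%), as a gene can have several windows. The ERSE was first described in promoters of this kind, so its presence in Hspa5, Hsp90b1 and Calr is background and no result of the arrays. The 250 bases before the start site of these 4 members are shown because they share this element while their array values ranged from -0.58 to -0.13. They run 5′ to 3′ on the strand of the gene, and the capitals mark the fixed letters of each ERSE. An element on the opposite strand reads CGTGG, 9 bases, ATTGG.

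Hspa5 promoter (GRCm38.p6, chr2:34771840-34772089, plus strand): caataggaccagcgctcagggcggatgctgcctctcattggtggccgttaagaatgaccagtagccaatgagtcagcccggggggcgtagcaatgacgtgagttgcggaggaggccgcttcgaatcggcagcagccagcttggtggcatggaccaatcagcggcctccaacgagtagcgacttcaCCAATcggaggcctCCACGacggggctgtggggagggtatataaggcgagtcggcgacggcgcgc
Hsp90b1 promoter (GRCm38.p6, chr10:86705445-86705694, minus strand): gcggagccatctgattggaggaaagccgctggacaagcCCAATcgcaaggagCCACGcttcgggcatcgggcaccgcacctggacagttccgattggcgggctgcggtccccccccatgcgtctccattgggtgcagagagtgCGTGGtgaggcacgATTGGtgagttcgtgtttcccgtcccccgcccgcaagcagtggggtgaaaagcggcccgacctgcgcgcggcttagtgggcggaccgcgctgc
Creld2 promoter (GRCm38.p6, chr15:88819396-88819645, plus strand): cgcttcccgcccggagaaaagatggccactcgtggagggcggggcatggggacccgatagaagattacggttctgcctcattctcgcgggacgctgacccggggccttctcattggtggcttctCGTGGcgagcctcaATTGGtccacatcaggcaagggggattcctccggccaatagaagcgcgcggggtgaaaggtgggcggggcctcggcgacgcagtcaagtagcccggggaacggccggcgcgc
Calr promoter (GRCm38.p6, chr8:84846932-84847181, minus strand): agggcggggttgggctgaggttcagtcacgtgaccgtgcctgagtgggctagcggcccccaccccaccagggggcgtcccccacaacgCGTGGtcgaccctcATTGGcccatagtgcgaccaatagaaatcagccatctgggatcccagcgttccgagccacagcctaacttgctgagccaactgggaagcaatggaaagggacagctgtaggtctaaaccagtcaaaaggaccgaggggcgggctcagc

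Counted from the start site, the element of Hspa5 lies from base -65 to base -47 on the strand of the gene. Hsp90b1 holds 2 elements, from -212 to -194 on the strand of the gene and from -107 to -89 on the opposite strand. The element of Creld2 lies from -126 to -108 and that of Calr from -162 to -144, both on the opposite strand. With 1 mismatch allowed among the fixed letters, 494 of the 32851 windows hold a match, and Pdia4 joins the 4, with the substitution G19T (position 1 is the first C of CCAAT) from -108 to -90. Neither ERSE-II (ATTGG, 1 base, CCACG; 12 windows, 0.0365%) nor the element TGACGTGG (222 windows, 0.676%), both searched on both strands, was found in the window of a member. ERSE-II shares the letters CCACG with the ERSE. A match describes letters in this window and does not show binding.

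Of the 10 members, 9 were lower in TG+STZ after scaling, against 49.1% of all genes measured. Signals were put on a log2 scale and lowered by their own array's 75th percentile, and the difference is TG+STZ minus WT+STZ. At least 20% lower (log2 -0.32 or below) were 6 members, namely Sdf2l1, Hyou1, Creld2, Manf, Hspa5 and Pdia4, against 6.64% of all genes, and none was at least 25% higher (log2 0.32 or above), against 5.32%. At least 1.5-fold lower (log2 -0.58 or below) were 2 members, Sdf2l1 and Hyou1, against 1.91%. Hyou1, at -0.588, lay just inside this threshold of -0.585, and Creld2, at -0.581, and Manf, at -0.576, just outside it. These shares stand beside the counts only as background, because the same contrast chose the members. The members' median difference was -0.46, beside 0.00 for all genes, and their differences ran from -0.79 to 0.04 with an SD of 0.27 over the 10 genes.

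The error printed with a difference comes from the scanner software for a single hybridisation of each array and was 0.20 on the log2 scale for each member with 1 probe (0.21 for Hyou1). It does not cover the spread between mice. Its median over all genes was also 0.20, and it hardly varied between bright genes with 1 probe. It therefore acts as a near-fixed margin and is no spread measured on a gene's own spots. The SD over the 10 spots of Creld2, given below, was 0.02. In units of that error, the 6 members at least 20% lower ran from -3.87 for Sdf2l1 to -2.06 for Pdia4. Hsp90b1 stood at -1.38 errors, and Calr, Xbp1 and Dnajb9 lay within 1 error. All genes were not counted by this measure, so these values have no background beside them. The members were also in part chosen on these differences. Of the 10 genes, 9 were brighter than the median gene, and 5 of the 6 members at least 20% lower belong to these. Among the 7987 brighter genes 2.78% were lower by that fold.

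**Figure D1:**
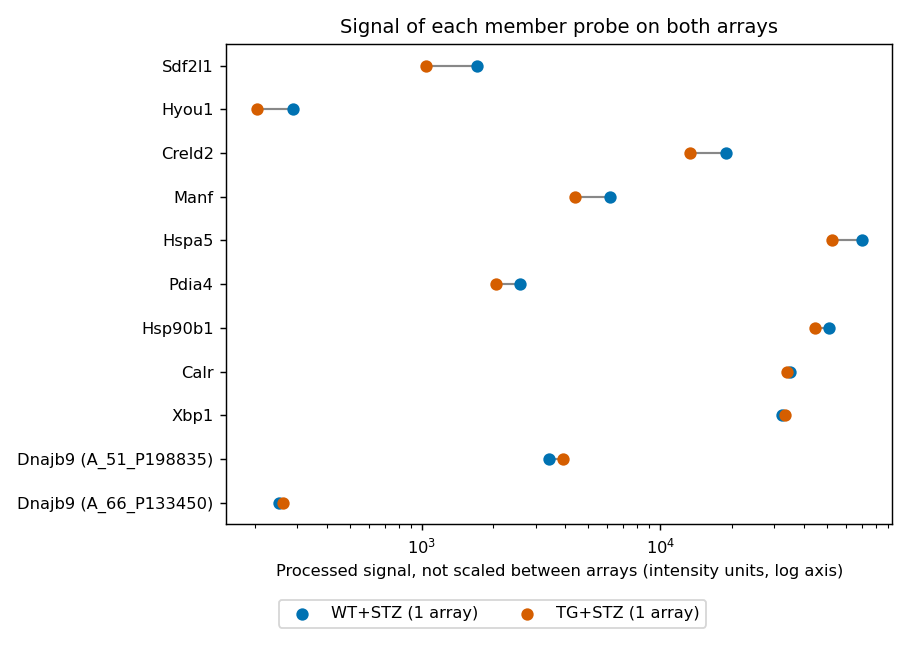
Processed signal of the 11 member probes on the WT+STZ array (blue) and the TG+STZ array (orange), in intensity units on a log axis and not scaled between arrays, with 1 array per group. The orange point lies left of the blue one from Sdf2l1 to Calr, and right of it for Xbp1 and both probes of Dnajb9.

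Hspa5 encodes BiP, the Hsp70 chaperone of the ER, which holds unfolded chains and keeps the stress sensors inactive. Its processed signal was 70146 intensity units for WT+STZ against 52509 for TG+STZ. After scaling, the log2 difference was -0.50 ± 0.20 (scanner error, 1 array per group), or 1.41-fold lower. The TG+STZ array was the lower one, and 2.72% of all genes had a more negative difference. This rank is a description, because the same contrast in part chose the members. Hspa8, which encodes the constitutive Hsp70 of the cytosol, stood at -0.06 ± 0.12.

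Hyou1 encodes the large Hsp70 relative GRP170, which exchanges the nucleotide of BiP. Its single probe read 290 units for WT+STZ against 203 for TG+STZ, a difference of -0.59 ± 0.21. Its spot was 7.44 times its local background in WT+STZ and 6.05 times in TG+STZ, the lowest such ratio among the member spots. Dnajb9 encodes ERdj4, a J-domain partner of BiP that is also a target of XBP1. Its brighter probe read 3428 units for WT+STZ against 3906 for TG+STZ, and its dimmer probe 253 and 262. The scaled differences were 0.11 ± 0.20 and -0.03 ± 0.20, on opposite sides of 0 and both within the error. Of the BiP partners, Dnajb9 was thus the one member above 0 in the mean of its probes (0.04 ± 0.14).

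Sdf2l1 encodes a small ER protein that works in the BiP cycle and keeps unfolded chains soluble. It had the largest difference of the 10, with 1708 units for WT+STZ against 1044 for TG+STZ, a log2 difference of -0.79 ± 0.20, or 1.73-fold lower. A lower difference was found for 143 of the 15975 genes (0.895%), in the contrast that in part chose the members. Sdf2, its close relative that is made without stress, stood at 0.00. The Sdf2l1 difference minus the Sdf2 difference was -0.79, with a combined scanner error of 0.29, a gap drawn from the same contrast.

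Manf encodes a small secreted protein that binds BiP and is released from stressed cells. It read 6177 units for WT+STZ against 4375 for TG+STZ, a difference of -0.58 ± 0.20. Its one relative, Cdnf, stood at 0.09 ± 0.21 and was dim, with 98.7 units for WT+STZ and 111 for TG+STZ. The Manf difference minus the Cdnf difference was -0.67, with a combined error of 0.29. This gap sets a gene from a set chosen in part for low values against a gene outside it.

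Creld2 encodes an EGF-repeat protein of the ER with disulfide isomerase activity that is induced by ER stress. Its 10 spots read from 17943 to 19551 units in WT+STZ, with a median of 18708, and from 12234 to 13708 in TG+STZ, with a median of 13276. These signals are not scaled between arrays. The difference at the same spot position ran from -0.63 to -0.56, with an SD of 0.02 over the 10 spots. After 1 spot marked as an outlier was left out, the mean difference was -0.58 over 9 spots. Over the 323 gene probes spotted 10 times, the median SD of the spot difference was 0.03, and 95% of these probes had an SD of 0.21 or less. These spots share 1 labelled RNA on each array, so they measure the array and not the mice. Creld1, a membrane protein of the same family, stood at 0.04 ± 0.20.

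Pdia4 encodes ERp72, a disulfide isomerase. It read 2590 units for WT+STZ against 2045 for TG+STZ, a difference of -0.42 ± 0.20. Its relative Pdia3, which works with the calnexin cycle, stood at -0.01 ± 0.20. Hsp90b1 encodes GRP94, the Hsp90 of the ER, which folds integrins and Toll-like receptors. It read 51054 units for WT+STZ against 44330 for TG+STZ, a difference of -0.28 ± 0.20, which is less than 20% lower. The cytosolic Hsp90 genes Hsp90aa1 and Hsp90ab1 stood at -0.05 and -0.04. Their gap to Hsp90b1 (-0.24 each) was smaller than the combined error of 0.29.

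Calr encodes calreticulin, a calcium-binding lectin that holds glycoproteins. It read 35121 units for WT+STZ against 33947 for TG+STZ, a difference of -0.13 ± 0.20, within the error. Canx, which encodes its membrane-bound counterpart calnexin and whose promoter also holds an ERSE, stood at 0.02 ± 0.20. Xbp1 read 32404 units for WT+STZ against 33460 for TG+STZ. Its unscaled signal was higher in TG+STZ and its scaled difference was -0.03 ± 0.20, also within the error. The position of the Xbp1 probe in the transcript is not given in the tables used here, so spliced and unspliced mRNA cannot be told apart.

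**Figure D2:**
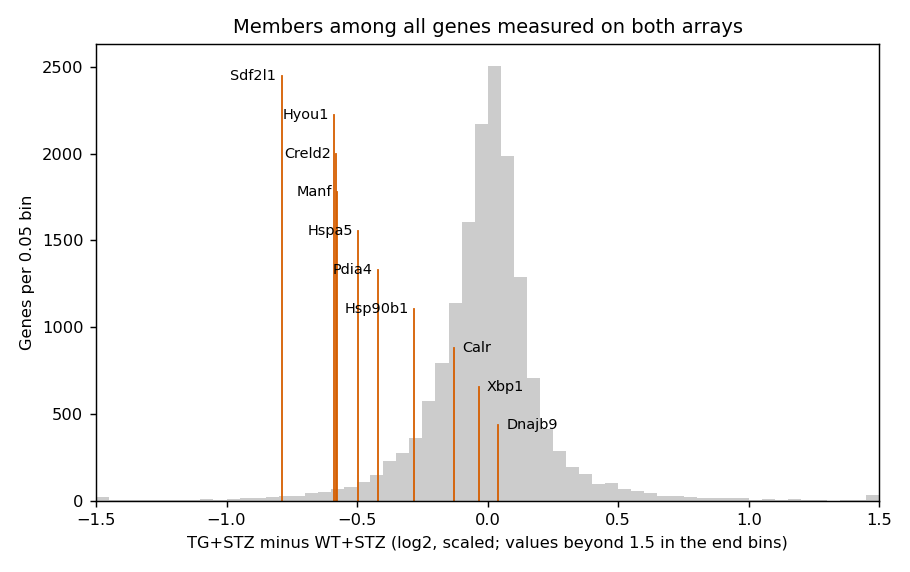
Histogram of the scaled log2 difference of the 15975 measured genes (grey, bins of 0.05 on the x axis, number of genes on the y axis), with an orange line at each of the 10 members. Values beyond 1.5 are drawn in the end bins, and line height carries no value. From Sdf2l1 at -0.79 to Pdia4 at -0.42, 6 members lie in the lower tail, and Calr, Xbp1 and Dnajb9 lie in the centre.

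Over 151 further genes of the pathway lists, 79 were lower and 72 higher, with a median of -0.01. Of them, 5 were at least 20% lower (3.31%) and 3 at least 25% higher. The former were Pdia5, Creb3l2, Nupr1, Atf3 and Sesn2, and the latter Asns, Atf5 and Creb3l3. The difference between the members and this remainder was fixed in part by how the members were chosen and was not tested.

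Among the stress sensors, Ern1 stood at -0.24, Atf6 at -0.02 and Eif2ak3 at -0.01. Atf6b, the second ATF6 gene, stood at -0.22. The proteases that cut ATF6 in the Golgi were split, with Mbtps1 at -0.15 and Mbtps2 at 0.08. The NF-Y subunits Nfya, Nfyb and Nfyc stood at 0.10, -0.18 and -0.01. Of the related membrane factors, Creb3l2 and Creb3l1 stood at -0.35 and -0.26 and Creb3 and Creb3l3 at 0.03 and 0.33. Of the factors downstream of PERK, Atf4 stood at 0.07 and Ddit3, which encodes the death-linked factor CHOP, at 0.14. In all, 10 of these 16 genes were lower and 6 higher, with a median of -0.02, and 1 passed the fold threshold in each direction.

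In the Hsp70 cycle, 15 of 16 listed genes were measured and 7 of them are members. The 8 others had a median of -0.02 and ran from -0.12 to 0.09, and none passed the fold threshold. Dnajc1 and Cnpy2 were the highest at 0.09 and 0.07. Dnajc3, which encodes the co-chaperone p58IPK and carries an ERSE, stood at -0.09. Dnajb11, which encodes ERdj3, was not among the genes measured on both arrays. Of the 16 disulfide isomerases and oxidases beside Pdia4, 10 were lower and 6 higher, with a median of -0.04. Pdia5 was the lowest at -0.35, and Erp44 and Tmx1 were the highest at 0.28 and 0.14. In the calnexin and calreticulin cycle beside Calr, 6 genes were lower and 4 higher, with a median of -0.02. Uggt2, a sensor of glycoprotein folding, was the lowest at -0.12, and Mlec and Prkcsh stood at 0.08 and 0.04.

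Genes of ER-associated degradation, which sends misfolded proteins to the proteasome, were evenly divided, with 9 of 18 lower and a median of 0.00. None passed the fold threshold. Herpud1, a stress-induced gene of this route, stood at 0.16 and Vcp at 0.13, against Sel1l at -0.20 and Selenos at -0.15. Edem1, a target of XBP1, stood at 0.03. The translocon, signal peptidase and TRAP genes, through which new chains enter the ER, had a median of 0.00 (10 of 21 lower), with Ssr2 and Srprb both at -0.11 and Srp68 and Tram1 at 0.24 and 0.11. N-glycosylation genes had a median of -0.02 (7 of 14 lower), with Ostc at -0.18, Gfpt1 at -0.16, Dad1 at 0.17 and Tusc3 at 0.15. Vesicle coat and retrieval genes had a median of 0.02 (9 of 22 lower), with Sec31a at -0.17, Copg1 at -0.14, Kdelr3 at 0.25 and Sec23b at 0.19. Collagen folding genes had a median of 0.03 (7 of 15 lower), with P4ha3 at -0.21, P4ha2 at -0.07, Fkbp7 at 0.30 and Fkbp10 at 0.18. None of these 4 lists held a gene past the fold threshold.

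The PERK and ATF4 arm had the widest range of the lists, from -0.43 to 0.63. Of its 15 measured genes 8 were lower and 7 higher, with a median of -0.07. Nupr1, Atf3 and Sesn2 stood at -0.43, -0.38 and -0.34, and Asns, the asparagine synthetase gene, and Atf5 at 0.63 and 0.36. Chac1 and Trib3, which are targets of ATF4 and CHOP, stood at -0.22 and 0.21. Genes of this arm thus lay on both sides of 0.

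Relatives of the members outside the set had a median of 0.06, with 4 of 14 lower. Beside those already given, Calr3 stood at -0.15, Hspa4 at 0.02, Hspa9 at 0.07, Dnajb4 at 0.09 and Trap1 at 0.16. Dnajb1 at 0.38, Pdia2 at 0.43 and Hspa1a at 0.44 were at least 25% higher. Pdia2 was dim, with 68.6 units for WT+STZ and 97.3 for TG+STZ. Hspa1b, a near-identical copy of Hspa1a, was not among the genes measured, and the Hspa1a value is uncertain for that reason. None of the 14 was as much as 20% lower.

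**Figure D3:**
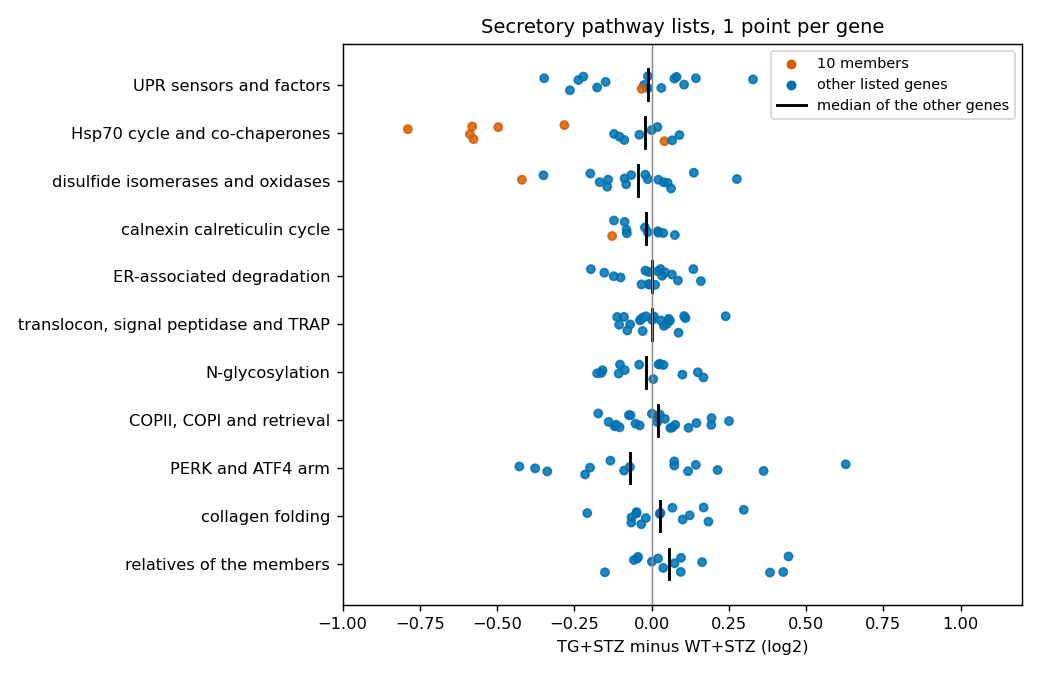
Scaled log2 difference (x axis) of each measured gene in 11 lists of the secretory pathway (rows), with the 10 members in orange, other genes in blue and a black bar at the median of the other genes. The medians of the blue points lie between -0.07 and 0.06, and the 6 leftmost orange points lie at -0.42 or below, where Nupr1 at -0.43 is the only blue point.

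Genes can also be grouped by the ERSE, a property of sequence and not of the array values. Of 37 genes with the exact element in a promoter window, 21 were measured. Of these 14 were lower and 7 higher, with a median of -0.05, against 0.00 over the 12681 measured genes that the promoter table holds. Of those 12681 genes, 6196 were lower, 816 at least 20% lower and 672 at least 25% higher. Without the 4 members, 10 of 17 were lower, with a median of -0.04, 1 was at least 20% lower and 3 were at least 25% higher. These 4 are named after their values were seen. The lower one is Acnat2, an acyltransferase of lipid metabolism, at -0.79 ± 0.14. The higher ones are Spats2l at 0.38 ± 0.20, Xlr3b at 0.37 ± 0.14 and Olfr59 at 0.33 ± 0.33, the last with 15.3 and 20.3 units of signal. The 7 other ER protein genes among the 17, also named after their values were seen, ran from -0.17 to 0.02. They were Alg12 at -0.17, Ero1b at -0.14, Pdia6 at -0.14, Derl3 at -0.10, Dnajc3 at -0.09, Syvn1 at 0.02 and Canx at 0.02. Each of the 7 differences was within its scanner error. Sdf2l1, the member with the largest difference, has a promoter in the table without an exact element or a match with 1 mismatch. The 7 measured genes with ERSE-II had a median of 0.03, with 1 lower, and the 128 with TGACGTGG a median of 0.00, with 63 lower.

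**Figure D4:**
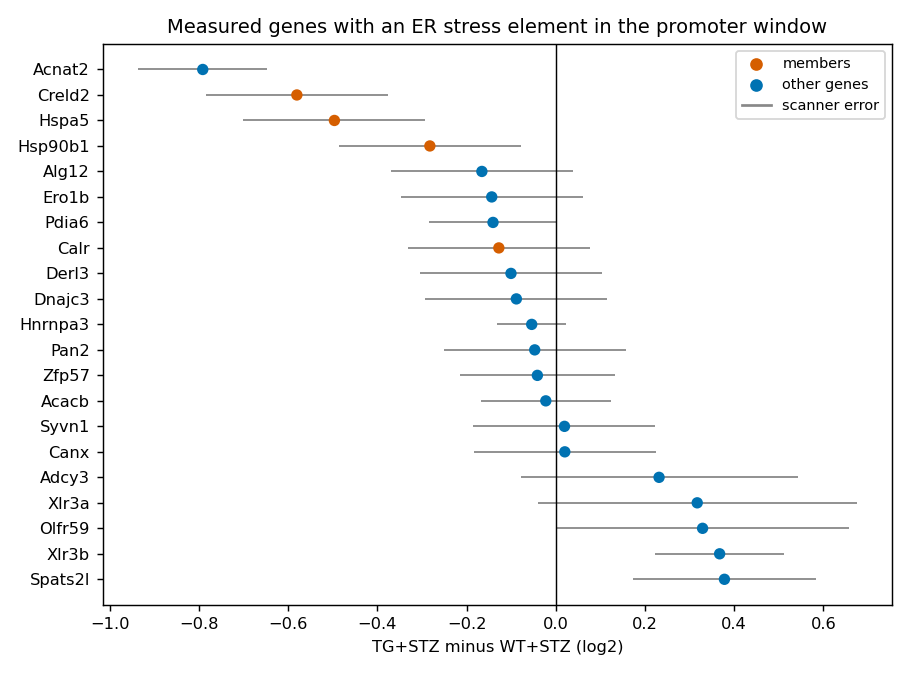
Scaled log2 difference (x axis) of the 21 measured genes whose promoter window holds an exact ER stress element, sorted by difference, with members in orange, other genes in blue and the scanner error as a grey bar (1 array per group). Of the 4 members Creld2, Hspa5 and Hsp90b1 lie more than 1 error below 0, and the other ER protein genes, such as Pdia6 and Canx, lie within 1 error.

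The arrays carried RNA of several cell types, and in such tissue fewer cells of a type and less RNA per cell cannot be told apart. All 12 podocyte markers were measured, with a median of -0.08 and 9 of 12 lower, and Nphs1, which encodes the slit diaphragm protein nephrin, was the lowest at -0.89. All 14 proximal tubule markers were measured as well, with a median of -0.02, from Slc22a8 at -0.56 to Keg1 at 0.67. The summed signal of these tubule markers was 2.07e+06 units for WT+STZ and 2.18e+06 for TG+STZ. That of the podocyte markers was 34322 and 30476. Summed signals here and below are not scaled between arrays, unlike the medians. The TG+STZ array was the brighter one, with a 75th percentile of 2042 units over gene spots against 1933 for WT+STZ. Lower on the same array as the members were markers of the loop, distal tubule and collecting duct (median -0.18, 12 of 14 lower, from Slc26a4 at -0.63 to Slc4a1 at 0.22), glomerular endothelium (median -0.12, 8 of 9 lower, from Plat at -0.30 to Cdh5 at 0.06) and mesangial and smooth muscle cells (median -0.11, 7 of 9 lower, from Acta2 at -0.35 to Itga8 at 0.15). The summed signal of the loop, distal tubule and collecting duct markers was 384057 units for WT+STZ and 397798 for TG+STZ. Umod alone gave 280541 and 306908 of these. The sums were 26799 and 26191 for the endothelial markers, and 27899 and 26520 for the mesangial and smooth muscle markers. Leukocyte markers had a median of -0.39, with 10 of 10 lower, from Ms4a1 at -0.79 to Itgam at -0.09. Their summed signal was 22839 units for WT+STZ against 21907 for TG+STZ, of which Itgam alone gave 12789 and 12445. Ms4a1 gave 97 and 59. The part of these cells in the members' values was not tested.

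Cells specialised for secretion are rich in ER chaperones. Plasma cell markers had a median of 0.16, with 6 of 8 higher, from Derl3 at -0.10 to Jchain at 2.23, and a summed signal of 2195 units for WT+STZ against 5791 for TG+STZ. Without Jchain, which encodes the joining chain of secreted antibodies, the other 7 had a median of 0.09, with 5 higher and 1 of these at least 25% higher, and their summed signal was 1322 units for WT+STZ against 1473 for TG+STZ. Exocrine pancreas markers were measured for 10 of 20 genes, and Cpa1, Prss2 and Ptf1a were not among the genes measured on both arrays. The 10 had a median of -0.22, with 7 lower, from Cpb1 at -1.76 to Cela1 at 0.33. Both of these genes were dim, with 37.6 units for WT+STZ and 11.7 for TG+STZ for Cpb1, and 38.4 and 50.9 for Cela1. The summed signal of the 10 was 1242 units for WT+STZ against 1128 for TG+STZ. Fibroblast markers were higher (median 0.50, 10 of 10, from Pdgfra at 0.03 to Clec3b at 1.096), as were the 4 of 8 fat cell markers measured, from Fabp4 at 0.34 to Cfd at 4.82. The part of these markers in the members' values was not tested either.

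**Figure D5:**
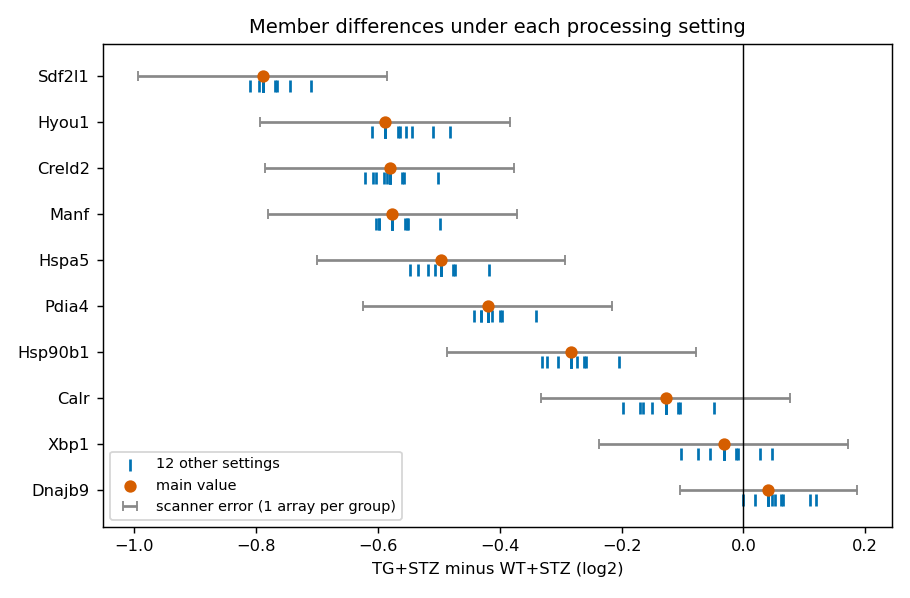
Scaled log2 difference of the 10 members (x axis) in the main setting (orange), with the scanner error as a grey bar and the values under 12 other processing settings as blue marks. All marks of the 7 members from Sdf2l1 to Hsp90b1 and of Calr lie below 0, and the marks of Xbp1 and Dnajb9 lie on both sides of 0.

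Across these settings Sdf2l1 ran from -0.81 to -0.71, Hspa5 from -0.55 to -0.42 and Pdia4 from -0.44 to -0.34. Xbp1 ran from -0.10 to 0.05, and it stood above 0 under normexp and without scaling. Dnajb9 ran from -0.00073 to 0.12. The direction of these last 2 genes therefore turned with the setting, while that of the other 8 did not.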

How the data were processed

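Total RNA was labelled with Cy3 and hybridised to 1 Agilent array per group. The deposited intensity values are background-subtracted and trend-corrected within each array by Agilent Feature Extraction 10.7.1.1, per the file headers (10.3.1.1 in the submitters' processing notes). The deposited value table held the same intensity at all 44397 spots.

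Each array's log2 processed intensity was reduced by the 75th percentile of its gene spots. Control spots and spots marked as outliers were left out, spots of a probe and probes of a gene were averaged, and a probe was kept where neither array had it saturated or flagged as not well above background. Of 39426 probes, 26410 were named by accession through a RefSeq table (GRCm38.p6), which covers 20017 genes. Promoter sequences come from RefSeq with the same build. The scanner error combines both arrays and is divided over the probes of a gene.

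The array medians were 173 and 180 units over gene spots, 75.0% and 76.3% of which were well above background. The 8 detected spike-in probes differed by -0.05 to 0.05. Precision is limited by having 1 array per group, and no test was run.

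The members and lists were chosen with earlier results of these data known. The text names the members, all sensors and relatives, the 2 highest and 2 lowest genes of other pathway lists, and the highest and lowest marker of each cell type (1 of these is not reported here), besides genes picked after seeing values: further list members that illustrate a role (Dnajc3, Edem1, Chac1, Trib3, Sesn2) and genes with an ERSE. A search for the ERSE with 1 mismatch, the background over brighter genes and marker lists without their most extreme gene were added after seeing the data. The steps were tested on simulated data. Alternatives were normexp (offset 50), other scalings, quantile, loess (span 0.3), the value table, other filters and other probe rules. Software was limma 3.58.1 (R 4.3.3), and pandas 2.3.3 with Python 3.11.15.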

Additional observations from a re-analysis of the deposited data

How the results depend on the processing

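The count of members at least 1.5-fold lower depended most on the setting. It was 1 under median centring, 1 with spike-in centring, 1 without scaling between arrays, 4 with the 75th percentile over detected probes, 3 with quantile normalisation, with loess or with outlier spots kept, and 0 at a 2-fold threshold, against 2 in the main setting. Hyou1 at -0.588, Creld2 at -0.581 and Manf at -0.576 lie next to the threshold of -0.585. Over 13 alternatives each, the count at least 20% lower was 6 or 7 (main 6) and the count lower 8 to 10 (main 9), and the members' median ran from -0.49 to -0.38 over 14. The count of 10 lower is of the 11 probes, each taken on its own. Counted by gene, it was 8 or 9. The 120 values of single members and the 143 list medians moved by less than the scanner error, which is a wide margin for a median. Several settings could hardly move the members. The value table holds the same intensities, and the looser filters on dim probes left all 10 members unchanged. Among the members, keeping outlier spots changed only Creld2, and using the brightest probe changed only Dnajb9. No scaling moved the median of all genes by more than 0.08. No paired analysis was possible because each group has 1 array, and for the same reason no array could be left out. Signal over background limits Hyou1 and the dimmer Dnajb9 probe most. Where a stricter reading needs the spread between mice, these arrays do not give it.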
